A study of Mus musculus with 12 samples.

Results

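The proteasome subunits, their assembly factors and the proteasome activators were examined in mouse liver after in vitro fertilization (IVF) and after loss of the transcription factor ATF7. Genes were taken by symbol (Psma, Psmb, Psmc, Psmd, Psme, Psmf or Psmg followed by a number), from probe sets of the array that carry 1 gene symbol, with the brightest probe set for each symbol. This gave 50 of the 19937 symbols on the array. Of these, 48 are proteasome genes, and the other 2, Psmc3ip and Psme3ip1, share only the symbol and were called in none of the contrasts. Psme2b has no probe set of its own, since its only probe set also carries Psme2, and was not analysed. Of the 48 proteasome genes, 46 had a mean above 6.27, the median over all probe sets, and the other 2, Psma8 and Psmb11, are subunits known from testis and thymus.

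The series holds liver RNA of 12 male C57BL6/JJmsSlc mice, each measured on its own Affymetrix Mouse Gene 1.0 ST array. The groups were Atf7-/- IVF, Atf7-/- natural mating, WT IVF and WT natural mating, with 3 mice each from different recipients or mothers. Age was 4 weeks by the labels, whereas the methods text gives a younger age. For IVF, oocytes of superovulated females were fertilized in human tubal fluid medium, and embryos at the cleavage stage were placed in the oviducts of pseudopregnant ICR females, so that the IVF groups also differ from natural mating in superovulation, embryo culture and the strain of the mother. Atf7-/- mice lack the gene in all cells from conception and came from Atf7-/- parents. Values are log2 expression values after robust multiarray averaging (RMA), and they are set against each other only within a probe set, because levels of different probe sets are not on a common scale.

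The proteasome is the protease complex that degrades proteins marked with ubiquitin. Its 20S core is a barrel of outer alpha rings, which gate the entry, and inner beta rings, which hold the proteolytic sites formed by Psmb5 (chymotrypsin-like), Psmb6 (caspase-like) and Psmb7 (trypsin-like). The 19S particle on its ends consists of a base with an ATPase ring, which unfolds substrates, and a lid, which removes ubiquitin. Interferon-gamma induces replacement of the catalytic subunits by Psmb8, Psmb9 and Psmb10 (the immunoproteasome), which shapes the peptides shown on MHC class I, and the PA28 activator made of Psme1 and Psme2. The liver holds abundant proteasomes in its hepatocytes, while immunoproteasome subunits are typical of immune cells.

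Both Atf7 probe sets were checked against the labels first. One read 5.34 to 5.68 in Atf7-/- IVF, 5.82 to 6.11 in Atf7-/- natural mating, 7.56 to 8.38 in WT IVF and 8.58 to 8.94 in WT natural mating, so that the Atf7-/- arrays lay below all WT arrays. The other read 8.28 to 8.43, 8.61 to 8.72, 8.70 to 8.88 and 8.87 to 9.27 in Atf7-/- IVF, Atf7-/- natural mating, WT IVF and WT natural mating, and whether either lies in the deleted part was not analysed here. The mean of 6 hepatocyte markers was 13.09 to 13.23 on every array, although 1 of them, Hnf4a, was called in 3 contrasts. WT natural mating replicate 3 stood apart: over the proteasome genes and the other 2 it correlated with the other arrays of its group at r = 0.950 and 0.960, whereas every other pair within a group reached 0.987 to 0.998. Over all probe sets its correlations were 0.980 and 0.982, nearer to the 0.984 to 0.990 of the other pairs within a group. WT natural mating replicate 3 gave the highest of all 12 values in 10 of 48 proteasome genes, in 6 of 9 interferon-induced genes and in 6 of 7 Kupffer cell markers. The like share over all probe sets is not given here. For called proteasome genes, results that rest on WT natural mating are therefore given with and without replicate 3, singly or within a range. Other values are in part given with all arrays only. Atf7-/- IVF and WT IVF arrays were close to each other, with r of 0.985 to 0.996 between arrays over the same genes.

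A gene was called where its Benjamini-Hochberg adjusted p, by limma over all 34760 probe sets, was at most 0.05 and its absolute log2 fold change at least 0.6. Of the 48 proteasome genes, 15 were called in at least 1 of 5 contrasts, which share arrays, beside 13.9% of all probe sets. The shares over all probe sets, here and below, include dim probe sets and 11799 without a symbol, whereas all but 2 of the 48 genes lay above the median. They are thus no matched background. The calls did not run along the whole complex: Psmb5, Psmb3 and Psmd14 were lowest in WT natural mating, whereas Psme2, Psmc5 and Psmd4 were lowest in Atf7-/- natural mating. The promoter sequences of these 6 genes, from RefSeq on GRCm38.p6, are shown because the genes divide into sets with opposite differences between the natural mating groups. Each is given 5′ to 3′ on the gene's strand, over the 150 bases before the start of transcription, with capitals for matches to TGACNNNGC (the core of an antioxidant response element, as known from proteasome genes), CCAAT (the NF-Y box), TGACGTCA (the full cyclic AMP response element, the kind of site that ATF/CREB factors bind), TTCNNNGAA (a STAT site) or GAAANNGAA (part of an interferon response element), searched on both strands.
Psmb5: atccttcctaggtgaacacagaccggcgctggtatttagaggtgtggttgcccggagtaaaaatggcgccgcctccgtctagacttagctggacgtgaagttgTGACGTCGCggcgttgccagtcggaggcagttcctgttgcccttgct
Psmb3: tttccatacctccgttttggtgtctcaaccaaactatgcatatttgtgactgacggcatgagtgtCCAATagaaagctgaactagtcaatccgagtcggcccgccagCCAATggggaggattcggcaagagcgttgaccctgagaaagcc
Psmd14: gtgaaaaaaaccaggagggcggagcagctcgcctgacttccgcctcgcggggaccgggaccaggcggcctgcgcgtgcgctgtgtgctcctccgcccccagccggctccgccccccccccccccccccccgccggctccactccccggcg
Psme2: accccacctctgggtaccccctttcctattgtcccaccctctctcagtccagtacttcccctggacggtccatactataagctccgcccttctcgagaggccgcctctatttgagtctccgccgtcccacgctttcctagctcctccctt
Psmc5: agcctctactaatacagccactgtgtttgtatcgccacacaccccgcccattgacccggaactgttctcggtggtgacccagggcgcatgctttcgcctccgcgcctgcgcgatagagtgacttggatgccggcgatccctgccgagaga
Psmd4: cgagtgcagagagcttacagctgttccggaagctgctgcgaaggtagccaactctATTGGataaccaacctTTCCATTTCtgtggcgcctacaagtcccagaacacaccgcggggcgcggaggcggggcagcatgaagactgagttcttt

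They lie at chr14:54617996-54618145 (Psmb5, minus strand), chr11:97703284-97703433 (Psmb3, plus), chr2:61711544-61711693 (Psmd14, plus), chr14:55591102-55591251 (Psme2, minus), chr11:106256035-106256184 (Psmc5, plus) and chr3:95042615-95042764 (Psmd4, minus), all upstream of the first exon. Psmb5 holds a TGACNNNGC match whose first letter is 47 bases before the start, Psmb3 has CCAAT at 85 and 43 bases, and Psmd4 has CCAAT at 95 and GAAANNGAA at 79. No matches to different motifs overlap in these stretches, and Psmd14, Psme2 and Psmc5 hold none there. Windows of 250 bases before to 50 after the start were found for 40 of the 48 genes (43 windows). In these, TGACNNNGC was present in 6 of 43 windows (14%) against 12.4% of all 32851 promoters, and CCAAT in 32.6% against 37.4%. TTCNNNGAA was present in 6.98% against 8.3%, GAAANNGAA in 7 windows (16.3%) against 8.56%, and TGACGTCA in 0 windows against 1.79%. None of the 4 windows of immunoproteasome and thymoproteasome genes held GAAANNGAA. A match is a description of the letters and not a site.

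To ask how IVF and ATF7 loss bear on the complex as a whole, the genes were first counted. After IVF in WT mice 7 of 48 genes rose (Psma3, Psmb3, Psmb5, Psmd2, Psmd5, Psmd6 and Psmd14) and 0 fell, beside 2.85% of all probe sets called higher and 1.67% called lower. In Atf7-/- mice, IVF raised 5 (Psma3, Psmb7, Psmc5, Psmd6 and Psme2) and lowered 0, beside 3.27% and 3.51% of all probe sets. ATF7 loss in natural mating raised 3 (Psmb3, Psmb5 and Psmd14) and lowered 5 (Psmb10, Psmc5, Psmd4, Psme2 and Psmg4), beside 3.83% and 3.67%. Between the IVF groups, limma called 0 proteasome genes for ATF7 loss in either direction, beside 0.0% of all probe sets higher and 0.00575% lower, and at an unadjusted p under 0.05 it gave 0 higher and 1 lower (Psme3, -0.41, SE 0.12, adjusted p = 0.715). The counts of 0 lower for IVF stood beside 5 lower at that unadjusted p in Atf7-/- and 4 in WT. The IVF effect differed between genotypes, by the interaction term, in 7 genes: it was more positive in Atf7-/- for 2 (Psmc5 and Psme2) and more negative for 5 (Psmb2, Psmb3, Psmb5, Psmd14 and Psme3), beside 2.72% and 3.46% of all probe sets. Of these 27 calls, 16 were kept without each array in turn.

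Without WT natural mating replicate 3, the counts were 7 higher and 0 lower for IVF in WT (2.91% and 2.25% of all probe sets), in which Psma4 (0.65, adjusted p = 0.0161), Psmd12 and Psme3 stood in place of Psma3, Psmd2 and Psmd5, 4 higher and 4 lower for ATF7 loss in natural mating (3.85% and 4.09%), and 1 higher and 5 lower for the interaction (3.28% and 3.86%). The median log2 fold change of the 48 genes was 0.10 for IVF in WT, beside -0.04 over all probe sets. It was 0.18 beside -0.02 without that array, and 0.17 beside 0.03 with median centring. For IVF in Atf7-/- it was 0.19, beside 0.01. For ATF7 loss it was -0.18 in natural mating, beside -0.02 (-0.15 beside -0.0035 without that array), and -0.09 in IVF, beside 0.01. In the IVF groups 40 of the 48 genes were below 0, though each by less than its call required. The heat map of all 48 genes shows that neighbours within one ring or particle often differed in opposite directions.

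**Figure D1:**
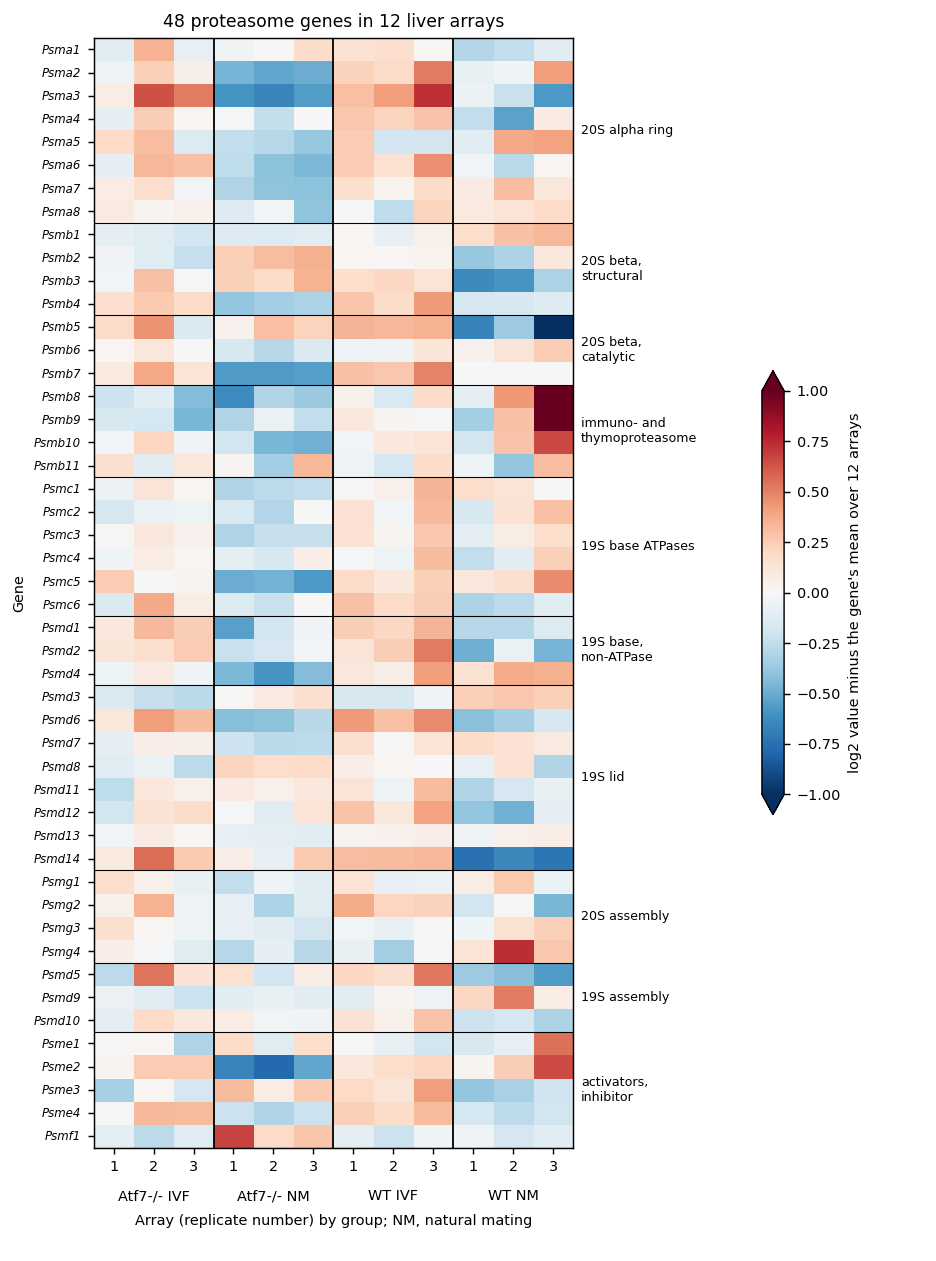
Log2 value of each of the 48 proteasome genes (rows, by particle) minus the gene's mean over the 12 arrays, for each array (columns, 3 replicates in each of the 4 groups; NM, natural mating); red is above and blue below the mean, and the scale ends at 1 either way. Psmb5, Psmb3 and Psmd14 are blue in WT natural mating, Psmc5, Psmd4, Psme2 and Psmb7 are blue in Atf7-/- natural mating, and Psmb8 and Psmb9 are darkest red in WT natural mating replicate 3.

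The constitutive 20S core was taken as the mean log2 value of 15 alpha and beta genes on each array, among them Psma8, the dim gene known from testis. This mean was higher after IVF, although 5 of the 15 genes had a negative log2 fold change for IVF in each genotype. It was 9.77, 9.98 and 9.77 in Atf7-/- IVF, 9.55, 9.53 and 9.56 in Atf7-/- natural mating, 9.92, 9.85 and 9.99 in WT IVF, and 9.59, 9.64 and 9.72 in WT natural mating. The 6 IVF arrays (9.77 to 9.99) thus lay above the 6 natural mating arrays (9.53 to 9.72), and they did so as well after each array's median was subtracted (3.45 to 3.78 against 3.26 to 3.38). Within the core the mean of the 3 catalytic genes separated in the same way (10.42 to 10.74 on IVF arrays, 10.16 to 10.35 on natural mating arrays). Taken singly, Psmb7 separated, whereas Psmb5 and Psmb6 overlapped. The alpha ring and the structural beta ring overlapped. The structural ring averaged 10.63 ± 0.07 in Atf7-/- IVF and 10.64 ± 0.04 in Atf7-/- natural mating. The mean of the 3 non-ATPase genes of the 19S base also separated (10.04 to 10.41 on IVF arrays, 9.58 to 9.99 on natural mating arrays). Of these genes Psmd1 and Psmd2 separated singly, whereas Psmd4 overlapped. The share of all probe sets that separate in this way, for genes named above or below, is not given. Among markers of other cells, the mean of 3 B cell markers separated too, at 6.10 to 6.41 on IVF arrays and 5.58 to 6.03 on natural mating arrays. The mean of 6 stellate markers overlapped (8.76 to 8.98 on IVF arrays, 8.23 to 9.01 on natural mating arrays). Of these 6, Dcn was 11.71 to 12.10 on IVF arrays and 11.26 to 11.64 on natural mating arrays, whereas Pdgfrb gave -0.31 for IVF in Atf7-/-. Their part in the core values was not tested. In bulk RNA, more cells with many proteasomes and more RNA per cell cannot be told apart. The 19S lid, with 8 genes, overlapped: it averaged 9.34 ± 0.11 in Atf7-/- IVF and 9.28 ± 0.05 in Atf7-/- natural mating, and 9.46 ± 0.07 in WT IVF and 9.16 ± 0.04 in WT natural mating (SD, n = 3). The immunoproteasome and thymoproteasome genes averaged 7.55 ± 0.09, 7.40 ± 0.05, 7.68 ± 0.09 and 7.97 ± 0.60 in Atf7-/- IVF, Atf7-/- natural mating, WT IVF and WT natural mating, and the wide spread of the last group came from replicate 3 at 8.63, beside 7.48 and 7.80. These means describe the lists and carry no test.

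**Figure D2:**
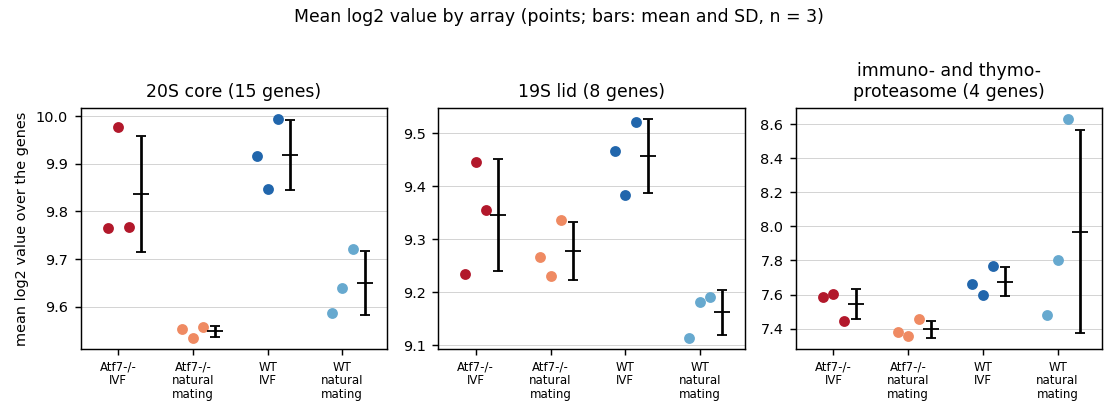
Mean log2 value on each array (points, in order of replicate number) over the 15 genes of the 20S core, the 8 genes of the 19S lid and the 4 immunoproteasome and thymoproteasome genes, with group mean and SD (bars, n = 3 arrays). For the core all IVF arrays lie above all natural mating arrays, whereas the immunoproteasome panel is set by 1 array of WT natural mating at 8.63.

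The core, the 19S particle and the immunoproteasome were also compared by the medians of their genes, as a description. For IVF in WT the median log2 fold change was 0.33 over the 15 core genes and 0.11 over the 17 genes of lid and base (0.37 and 0.16 without WT natural mating replicate 3), against -0.29 over the 4 immunoproteasome and thymoproteasome genes, but this last value was 0.04 without that array. After IVF in Atf7-/- these medians were 0.24, 0.22 and 0.12. ATF7 loss in natural mating gave -0.32 for the core, -0.06 for lid and base and -0.63 for the immunoproteasome, and without that array these were -0.28, 0.01 and -0.30. Among the alpha subunits 7 of 8 had a positive log2 fold change for IVF in Atf7-/-, the dim Psma8 among them (0.24), and in the ATPase ring 6 of 6 did. All 17 lid and base genes were slightly lower in Atf7-/- IVF than in WT IVF, with a median of -0.11, and no member passed the test.

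In the alpha rings, Psma3 was the 1 gene of 8 whose brightest probe set was called. It read 10.72, 11.28 and 11.16 in Atf7-/- IVF, 10.05, 9.98 and 10.08 in Atf7-/- natural mating, 10.95, 11.06 and 11.37 in WT IVF, and 10.58, 10.42 and 10.07 in WT natural mating. Every IVF array was above every natural mating array of either genotype. The IVF effect was 1.01 in Atf7-/- (SE 0.17, adjusted p = 0.00346) and 0.77 in WT (SE 0.17, adjusted p = 0.0223), and these did not differ by the interaction term (0.24, SE 0.24, adjusted p = 0.62). The WT call ended without WT IVF replicate 2 or 3 or WT natural mating replicate 2 or 3 (log2 fold changes of 0.63 to 0.80, adjusted p of 0.0536 to 0.0802) and with only the groups compared in the fit (adjusted p = 0.0599). Psma3 has 2 further probe sets, which gave 1.13 and 0.96 for IVF in Atf7-/-, and 0.54 (adjusted p = 0.0775) and 0.62 (adjusted p = 0.0398) for IVF in WT, and 1 of them was called for ATF7 loss in natural mating (-0.70, adjusted p = 0.0197), where the brightest gave -0.32 (adjusted p = 0.275). The locus that each probe set was designed for was not analysed here, so that signal from a near-identical copy of Psma3 cannot be told apart.

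Of the other alpha genes, Psma2 and Psma7 were lowest in Atf7-/- natural mating. Psma7 was 0.54 lower there than in WT natural mating (SE 0.09, adjusted p = 0.00338) and Psma2 0.60 lower (SE 0.14, adjusted p = 0.0174), both just short of the fold threshold. Psma2 passed it without Atf7-/- natural mating replicate 1 (-0.61) or without WT natural mating replicate 1 (-0.68) or 2 (-0.67). Leaving out WT natural mating replicate 3 gave -0.44 (adjusted p = 0.0378) for Psma2 and -0.57 (adjusted p = 0.00651) for Psma7, both under the threshold. For IVF in WT, Psma4 gave 0.50 (adjusted p = 0.0639) and was called once WT natural mating replicate 3 was left out (0.65). For ATF7 loss in natural mating, Psma1 and Psma4 had the highest values of the ring, 0.27 (adjusted p = 0.201) and 0.15 (adjusted p = 0.58). In the same contrast Psma5 gave -0.53 (adjusted p = 0.0689) with its brightest probe set and -0.79 (adjusted p = 0.00578) with the other. Without WT natural mating replicate 1 its brightest probe set was called as well (-0.69, adjusted p = 0.0236), whereas without replicate 3 that probe set gave -0.44 (adjusted p = 0.176).

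In the beta rings, Psmb5 and Psmb3 separated WT natural mating from the rest. Psmb5, the chymotrypsin-like subunit and the main target of proteasome inhibitors, read 11.49, 11.75 and 11.15 in Atf7-/- IVF, 11.34, 11.60 and 11.52 in Atf7-/- natural mating, 11.64, 11.64 and 11.64 in WT IVF, and 10.63, 10.93 and 10.25 in WT natural mating. The 3 WT natural mating arrays were below all 9 others. Psmb5 rose by IVF in WT (1.03, SE 0.18, adjusted p = 0.00764) and by ATF7 loss in natural mating (0.88, SE 0.18, adjusted p = 0.00758), and the IVF effect in Atf7-/- was -0.03 (SE 0.18, adjusted p = 0.956). The difference between the IVF effects was -1.06 (SE 0.25, adjusted p = 0.0303). Its lowest value was on the array that stands apart, and without that array the 3 calls were 0.85, 0.71 and -0.88 with adjusted p of 0.0141, 0.0196 and 0.0381. The interaction call ended without any one of 8 other arrays (adjusted p of 0.0531 to 0.0704, log2 values of -1.07 to -0.90), namely all but Atf7-/- natural mating replicate 1, Atf7-/- IVF replicate 2 and WT natural mating replicate 2 and 3.

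Psmb3, a structural beta subunit, was also lowest in WT natural mating. It read 11.97, 12.29 and 11.98 in Atf7-/- IVF, 12.23, 12.18 and 12.34 in Atf7-/- natural mating, 12.17, 12.20 and 12.13 in WT IVF, and 11.35, 11.40 and 11.68 in WT natural mating. The WT natural mating arrays lay below all others. IVF in WT raised it by 0.69 (SE 0.11, adjusted p = 0.00636), ATF7 loss in natural mating by 0.77 (SE 0.11, adjusted p = 0.00148), and the interaction was -0.86 (SE 0.16, adjusted p = 0.0109). These were 0.79, 0.87 and -0.96 without WT natural mating replicate 3, and a second Psmb3 probe set gave 0.88, 1.07 and -1.24. No array left out ended these Psmb3 calls.

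Psmb2, the other structural subunit with a call, was highest in Atf7-/- natural mating. It read 10.26, 10.18 and 10.07 in Atf7-/- IVF, 10.54, 10.60 and 10.65 in Atf7-/- natural mating, 10.32, 10.31 and 10.33 in WT IVF, and 9.92, 9.99 and 10.40 in WT natural mating. Its interaction of -0.64 (SE 0.17, adjusted p = 0.0437) combined an IVF effect of -0.43 in Atf7-/- (adjusted p = 0.0379) with 0.21 in WT (adjusted p = 0.295), neither past the fold threshold. This call was lost without any one array except WT natural mating replicate 3 (-0.69 to -0.55, adjusted p of 0.0554 to 0.102), and without that replicate it was -0.79 (adjusted p = 0.00443) and ATF7 loss in natural mating was called as well (0.64, adjusted p = 0.00145). Psmb1 was 0.40 lower in Atf7-/- than in WT after natural mating (SE 0.08, adjusted p = 0.00655), and Psmb4 was 0.55 higher after IVF in Atf7-/- (SE 0.08, adjusted p = 0.00185) and 0.44 higher after IVF in WT (SE 0.08, adjusted p = 0.0105), all short of the fold threshold.

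The other catalytic subunits did not follow Psmb5. Psmb7, the trypsin-like subunit, read 10.23, 10.51 and 10.26 in Atf7-/- IVF, 9.56, 9.55 and 9.57 in Atf7-/- natural mating, 10.41, 10.40 and 10.62 in WT IVF, and 10.13, 10.12 and 10.13 in WT natural mating. The arrays of each natural mating group were close together, and Atf7-/- natural mating lay below all other arrays. IVF raised Psmb7 in Atf7-/- by 0.77 (SE 0.10, adjusted p = 0.000703), whereas the WT effect was 0.35 (SE 0.10, adjusted p = 0.046) and ATF7 loss in natural mating gave -0.56 (SE 0.10, adjusted p = 0.00303), both under the fold threshold. Psmb6, the caspase-like subunit, read 9.87, 9.97 and 9.85 in Atf7-/- IVF, 9.69, 9.58 and 9.71 in Atf7-/- natural mating, 9.80, 9.81 and 9.97 in WT IVF, and 9.90, 9.99 and 10.10 in WT natural mating, and was called in none of the contrasts.

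**Figure D3:**
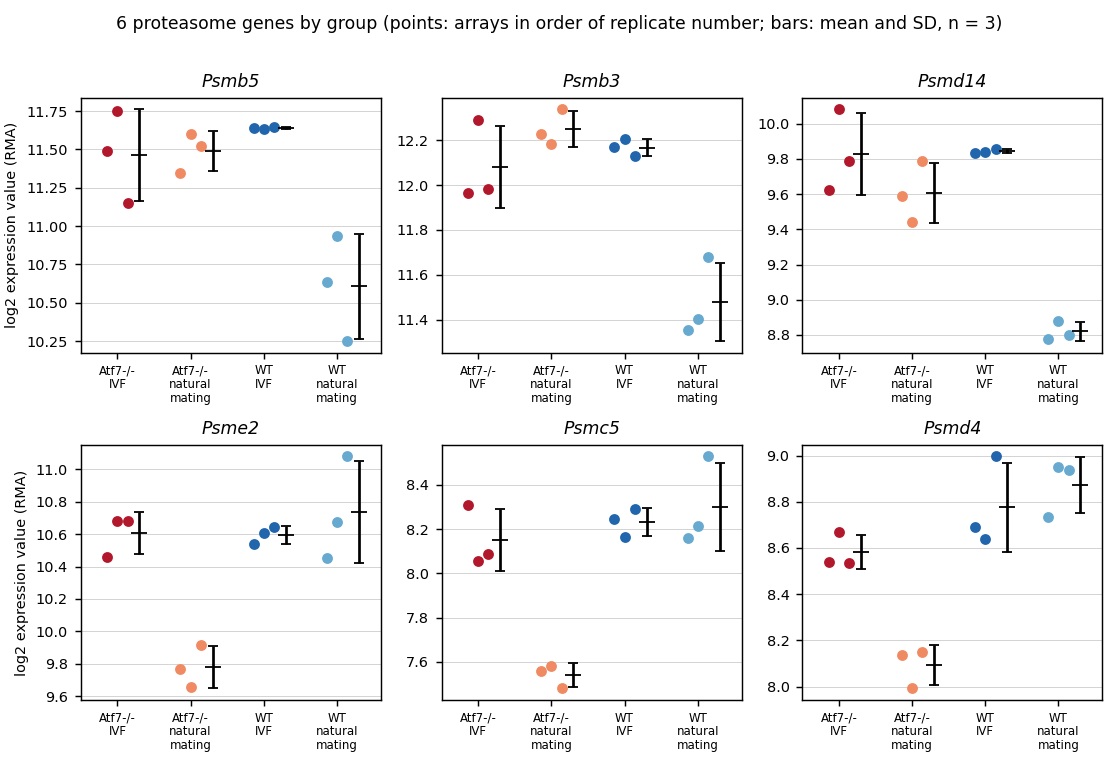
Log2 expression values of Psmb5, Psmb3 and Psmd14 (top) and Psme2, Psmc5 and Psmd4 (bottom) on each array (points, in order of replicate number within the 4 groups), with group mean and SD (bars, n = 3 arrays). In the top row the 3 WT natural mating arrays lie below the 9 others, and in the bottom row the 3 Atf7-/- natural mating arrays lie below the 9 others.

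In the 19S lid, Psmd14, the metalloprotease that cuts ubiquitin chains from substrates, followed Psmb5 and Psmb3. It read 9.62, 10.08 and 9.79 in Atf7-/- IVF, 9.59, 9.44 and 9.79 in Atf7-/- natural mating, 9.84, 9.84 and 9.86 in WT IVF, and 8.78, 8.88 and 8.80 in WT natural mating. The WT natural mating arrays were below every other array, with an SD of 0.05, so that replicate 3 did not stand apart for this gene. Psmd14 rose by IVF in WT (1.02, SE 0.12, adjusted p = 0.00161) and by ATF7 loss in natural mating (0.79, SE 0.12, adjusted p = 0.00193), with an interaction of -0.80 (SE 0.17, adjusted p = 0.0199). The interaction was just past 0.05 without Atf7-/- natural mating replicate 3 (-0.71, adjusted p = 0.0501) or Atf7-/- IVF replicate 3 (-0.78, adjusted p = 0.0517), and without WT natural mating replicate 3 the 3 values were 1.01, 0.78 and -0.79.

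Psmd6, a scaffold subunit of the lid, was instead higher after IVF in both genotypes. It read 9.45, 9.76 and 9.66 in Atf7-/- IVF, 8.91, 8.93 and 9.06 in Atf7-/- natural mating, 9.77, 9.64 and 9.81 in WT IVF, and 8.92, 8.99 and 9.17 in WT natural mating. All 6 IVF arrays were above all 6 natural mating arrays. The effects of 0.66 in Atf7-/- (SE 0.11, adjusted p = 0.0027) and 0.71 in WT (SE 0.11, adjusted p = 0.00398) did not differ by the interaction (-0.05, SE 0.15, adjusted p = 0.878). The Atf7-/- effect was 0.59 without Atf7-/- IVF replicate 2, and the WT effect was 0.78 (adjusted p = 0.0044) without WT natural mating replicate 3. Psmd3 went the other way, with -0.30 in Atf7-/- (SE 0.08, adjusted p = 0.0277) and -0.37 in WT (SE 0.08, adjusted p = 0.0192), short of the fold threshold. Psmd12 gave 0.59 for IVF in WT (SE 0.14, adjusted p = 0.0245) and was called without WT IVF replicate 2 (0.67) or WT natural mating replicate 3 (0.70). Psmd7, the partner of Psmd14 in the lid, was 0.39 lower in Atf7-/- than in WT after natural mating (SE 0.08, adjusted p = 0.0104), and Psmd8 gave -0.34 for IVF in Atf7-/- (SE 0.11, adjusted p = 0.0661).

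Sem1, the smallest lid subunit, lies outside the symbol rule and was taken from the list of proteasome partners. It read 9.47, 9.26 and 9.28 in Atf7-/- IVF, 7.93, 8.26 and 7.97 in Atf7-/- natural mating, 9.34, 9.33 and 9.24 in WT IVF, and 9.24, 9.71 and 9.62 in WT natural mating. Atf7-/- natural mating lay about 1 log2 unit or more below each other array. Sem1 fell by 1.47 with ATF7 loss in natural mating (SE 0.13, adjusted p = 0.000102), rose by 1.29 with IVF in Atf7-/- (SE 0.13, adjusted p = 0.000316) and had an interaction of 1.51 (SE 0.19, adjusted p = 0.00161). Without WT natural mating replicate 3 the first and the last of these were -1.42 and 1.46, and no array left out ended the calls.

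In the 19S base, Psmc5 and Psmd4 had their lowest values in Atf7-/- natural mating. Psmc5, an ATPase of the ring, read 8.31, 8.06 and 8.09 in Atf7-/- IVF, 7.56, 7.58 and 7.48 in Atf7-/- natural mating, 8.25, 8.17 and 8.29 in WT IVF, and 8.16, 8.21 and 8.53 in WT natural mating. The Atf7-/- natural mating arrays were below the 9 others. ATF7 loss in natural mating lowered Psmc5 (-0.76, SE 0.11, adjusted p = 0.00135, and -0.65 without WT natural mating replicate 3), and IVF in Atf7-/- raised it (0.61, SE 0.11, adjusted p = 0.00495). The IVF effect was under the fold threshold without Atf7-/- natural mating replicate 3 (0.58) or Atf7-/- IVF replicate 1 (0.53). Its interaction of 0.68 (SE 0.16, adjusted p = 0.0273) was lost without WT natural mating replicate 3 (0.56), without Atf7-/- IVF replicate 1 (0.60), and without WT IVF replicate 1 or 2 or any Atf7-/- natural mating array (0.64 to 0.70, adjusted p of 0.0514 to 0.0689). None of the other 5 ATPases was called in a contrast, and their log2 fold changes for ATF7 loss in natural mating were between -0.38 (Psmc1, whose second probe set gave -0.50) and 0.10 (Psmc6).

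Psmd4, the ubiquitin receptor of the base, was similar to Psmc5. It read 8.54, 8.67 and 8.54 in Atf7-/- IVF, 8.14, 7.99 and 8.15 in Atf7-/- natural mating, 8.69, 8.64 and 9.0 in WT IVF, and 8.73, 8.95 and 8.94 in WT natural mating. Here too Atf7-/- natural mating did not overlap the rest. Psmd4 fell by ATF7 loss in natural mating (-0.78, SE 0.11, adjusted p = 0.00115, and -0.75 without WT natural mating replicate 3), while the IVF effect in Atf7-/- was 0.49 (SE 0.11, adjusted p = 0.0149) and the interaction 0.59 (SE 0.16, adjusted p = 0.0472), just under the fold threshold. Without WT IVF replicate 3 (0.70) or WT natural mating replicate 1 (0.66) the interaction passed it. Leaving out WT natural mating replicate 3 gave an interaction of 0.555 (adjusted p = 0.0743), short of both thresholds.

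Psmd2, a scaffold of the base, read 10.59, 10.63 and 10.72 in Atf7-/- IVF, 10.25, 10.30 and 10.44 in Atf7-/- natural mating, 10.60, 10.72 and 10.99 in WT IVF, and 9.98, 10.40 and 10.00 in WT natural mating. All IVF arrays were above all natural mating arrays. It rose by IVF in WT (0.64, SE 0.13, adjusted p = 0.0172), a call that ended without WT IVF replicate 3 (0.53) or WT natural mating replicate 1 (0.56) or 3 (0.57) and with only the groups compared (adjusted p = 0.0782), whereas a second Psmd2 probe set gave 0.75 (adjusted p = 0.00261). Psmd1, its counterpart in the base, gave 0.48 for IVF in Atf7-/- (SE 0.13, adjusted p = 0.0277) and 0.50 for IVF in WT (SE 0.13, adjusted p = 0.0326), under the fold threshold.

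Among the assembly factors, Psmd5, a chaperone of the base, read 8.21, 9.01 and 8.62 in Atf7-/- IVF, 8.63, 8.29 and 8.55 in Atf7-/- natural mating, 8.68, 8.64 and 9.0 in WT IVF, and 8.11, 8.05 and 7.90 in WT natural mating. WT natural mating was the lowest group and Atf7-/- IVF the most spread. Psmd5 rose by IVF in WT (0.75, SE 0.18, adjusted p = 0.0314), but the call was lost without any one WT array (0.64 to 0.82, adjusted p of 0.0586 to 0.108). Its interaction of -0.63 (adjusted p = 0.186) was called only without Atf7-/- IVF replicate 2 (-0.83, adjusted p = 0.0483). Psmg4, a chaperone of the 20S core, read 7.51, 7.43 and 7.33 in Atf7-/- IVF, 7.16, 7.35 and 7.18 in Atf7-/- natural mating, 7.37, 7.10 and 7.47 in WT IVF, and 7.59, 8.19 and 7.72 in WT natural mating, with WT natural mating above all others. It fell by ATF7 loss in natural mating (-0.60, SE 0.15, adjusted p = 0.0242), and this ended without WT natural mating replicate 2 (-0.42) or Atf7-/- natural mating replicate 1 or 3 (both -0.57) and with only the groups compared (adjusted p = 0.0738). The call was kept without WT natural mating replicate 3 (-0.66, adjusted p = 0.0321). Without WT natural mating replicate 1 Psmg4 was also lower after IVF in WT (-0.64) and had an interaction of 0.83 (adjusted p = 0.0471). Leaving out replicate 3 instead gave -0.58 (adjusted p = 0.0694) for IVF in WT and 0.77 (adjusted p = 0.0728) for the interaction, neither called. The other assembly genes, Psmg1, Psmg2, Psmg3, Psmd9 and Psmd10, were called in none of the contrasts.

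The immunoproteasome genes were scattered in WT natural mating and close together elsewhere. Psmb8, which takes the place of Psmb5, read 7.63, 7.73 and 7.41 in Atf7-/- IVF, 7.21, 7.54 and 7.47 in Atf7-/- natural mating, 7.88, 7.69 and 8.02 in WT IVF, and 7.74, 8.28 and 9.47 in WT natural mating. Psmb9, which replaces Psmb6, read 8.05, 8.04 and 7.76 in Atf7-/- IVF, 7.92, 8.15 and 7.97 in Atf7-/- natural mating, 8.32, 8.24 and 8.19 in WT IVF, and 7.88, 8.51 and 9.56 in WT natural mating. For both genes WT natural mating replicate 3 was the highest of the 12 arrays by more than 1 log2 unit, while replicate 1 lay among the other groups. ATF7 loss in natural mating gave -1.09 for Psmb8 (SE 0.33, adjusted p = 0.0516) and -0.64 for Psmb9 (SE 0.31, adjusted p = 0.228), which were -0.60 (adjusted p = 0.0507) and -0.18 (adjusted p = 0.577) without replicate 3. Both were called without WT natural mating replicate 1, with -1.47 (adjusted p = 0.0094) and -1.02 (adjusted p = 0.0252). IVF in WT gave -0.63 for Psmb8 (adjusted p = 0.268) and -0.40 for Psmb9 (adjusted p = 0.475), and without replicate 3 these were -0.15 and 0.06.

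Psmb10, which replaces Psmb7, read 8.83, 9.07 and 8.82 in Atf7-/- IVF, 8.68, 8.40 and 8.37 in Atf7-/- natural mating, 8.83, 8.96 and 9.0 in WT IVF, and 8.67, 9.15 and 9.51 in WT natural mating. It was the one immunoproteasome gene with a call, lower by ATF7 loss in natural mating (-0.62, SE 0.18, adjusted p = 0.044), although 1 array of each group had nearly the same value. The call ended without any one of the 6 natural mating arrays except WT natural mating replicate 1 (-0.72 to -0.42, adjusted p of 0.0542 to 0.136), and with only the groups compared (adjusted p = 0.131). Without WT natural mating replicate 1, Psmb10 also had an interaction of 0.83 (adjusted p = 0.0367). Leaving out replicate 3 instead gave an interaction of 0.40 (adjusted p = 0.292). Psmb11, the thymus subunit, stayed within 5.28 to 6.0 on all arrays and was called in none of the contrasts.

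Of the interferon-induced genes, 9 were measured, and several shared the high value in WT natural mating replicate 3. Tap1, a peptide transporter of the MHC class I pathway whose gene neighbours Psmb8 and Psmb9, read 8.0, 7.73 and 7.73 in Atf7-/- IVF, 8.40, 8.31 and 8.35 in Atf7-/- natural mating, 7.95, 7.70 and 8.0 in WT IVF, and 7.98, 8.59 and 9.72 in WT natural mating. Irf1, a transcription factor of the interferon response, read 8.36, 8.15 and 8.53 in Atf7-/- IVF, 7.92, 8.09 and 7.79 in Atf7-/- natural mating, 8.24, 8.33 and 8.39 in WT IVF, and 8.40, 8.85 and 9.88 in WT natural mating. The rank of the 3 WT natural mating mice was the same for Psmb8, Psmb9, Psmb10, Tap1 and Irf1. Of the 9 genes, Cxcl10 (-1.32) and Nlrc5 (-0.64) fell with IVF in WT, Cxcl10 fell with IVF in Atf7-/- (-1.97), Irf1 (-1.11) and Irf8 (-0.85) fell with ATF7 loss in natural mating, and Irf8 had an interaction of 0.83. Both WT calls, of Cxcl10 (-0.91, adjusted p = 0.075) and Nlrc5 (-0.51), ended without WT natural mating replicate 3 and also without WT IVF replicate 2 or 3, and leaving out WT natural mating replicate 2 ended that of Cxcl10 too (-1.41, adjusted p = 0.0764). The interaction of Irf8 was lost when WT natural mating replicate 3 was left out (0.71, adjusted p = 0.0631) and likewise for 9 of the others, and Irf1 was lost without any one Atf7-/- natural mating array (adjusted p of 0.0519 to 0.0869) but kept without WT natural mating replicate 3 (-0.69). Cxcl10 ran the other way for ATF7 loss in natural mating, at 0.71 (adjusted p = 0.218) with all arrays and 1.11 (adjusted p = 0.0273) without that array.

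**Figure D4:**
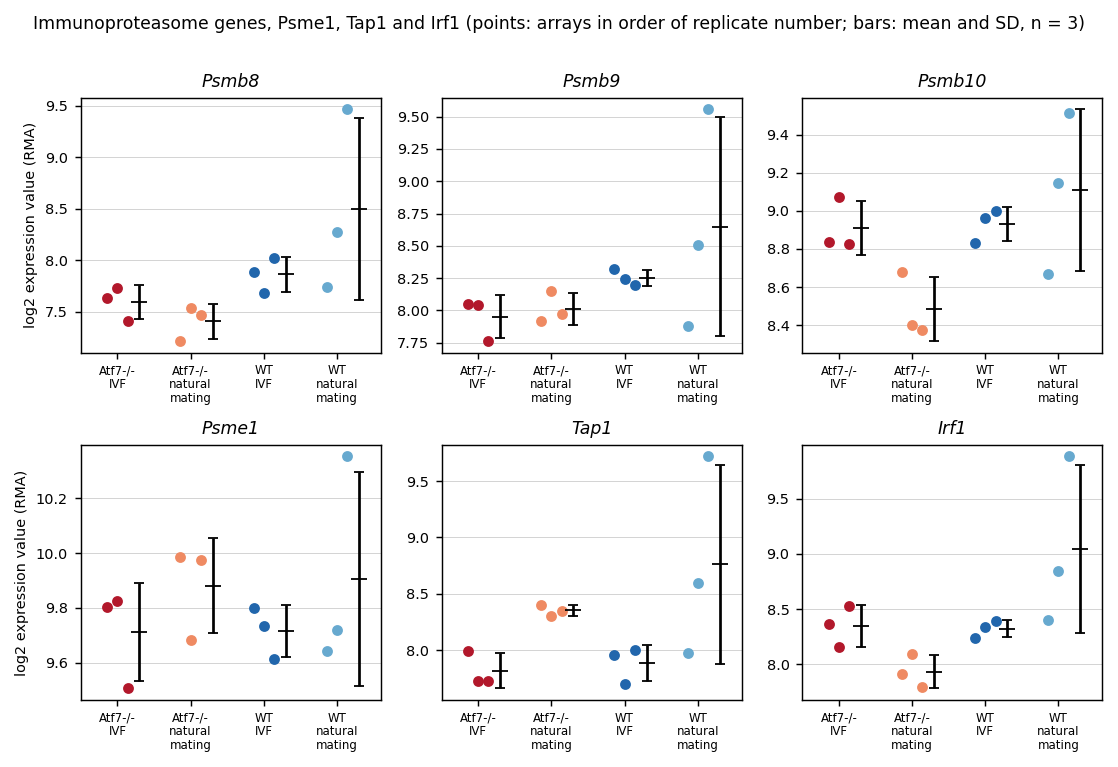
Log2 expression values of Psmb8, Psmb9, Psmb10, Psme1, Tap1 and Irf1 on each array (points, in order of replicate number within the 4 groups), with group mean and SD (bars, n = 3 arrays). WT natural mating replicate 3 is the highest array in all 6 panels, at 9.47 for Psmb8 and 9.72 for Tap1.

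Kupffer cell markers moved with these genes. Over 7 markers the mean log2 value was 8.78, 9.18 and 9.54 in WT natural mating, against a range of 8.68 to 8.95 on the other 9 arrays, and 6 of the 7 were highest in WT natural mating replicate 3, while Vsig4 was lowest there. ATF7 loss in natural mating lowered Clec4f (-0.95, and -0.75 without replicate 3) and Marco (-1.10, and -0.70 with adjusted p = 0.0787 without it) and raised Vsig4 (0.62, and 0.54 without it, under the fold threshold). The Marco call was lost also without WT natural mating replicate 2 or any Atf7-/- natural mating array (adjusted p of 0.0594 to 0.129), and that of Vsig4 without Atf7-/- natural mating replicate 3 (0.57). Vsig4 also had an interaction of -0.67 (adjusted p = 0.0423), which was lost without any one of 9 arrays, WT natural mating replicate 3 among them (-0.59, adjusted p = 0.0689). T and NK cell markers averaged 5.35, 5.61 and 5.85 in WT natural mating and 5.42 to 5.68 elsewhere, and S100a8 and S100a9, 2 of 4 neutrophil markers, were highest in replicate 3. The part of these cells in the immunoproteasome values was not tested. Outside the Kupffer list, the markers called in at least 1 contrast were 1 of 6 for hepatocytes (Hnf4a), 1 of 8 for T and NK cells (Cd3g), 1 of 3 for B cells (Ms4a1), 1 of 4 for neutrophils (S100a9), 1 of 5 for endothelium (Clec4g), 1 of 6 for stellate cells (Pdgfrb) and 0 of 2 for erythroid cells. Of all probe sets, 13.9% were called in at least 1 contrast. Clec4g gave 0.75 for IVF in WT, 1.0 for ATF7 loss in natural mating and -1.10 for the interaction. Pdgfrb gave 0.58 (under the fold threshold), 0.89 and -0.89 for these contrasts. Both were lowest in WT natural mating, as Psmb5, Psmb3 and Psmd14 were. The stellate list averaged 8.94 ± 0.03 in Atf7-/- IVF, 8.85 ± 0.17 in Atf7-/- natural mating, 8.87 ± 0.11 in WT IVF and 8.46 ± 0.22 in WT natural mating. Its part in the values of those genes was not tested. Without WT natural mating replicate 3 the 3 values were 0.67 (adjusted p = 0.0555), 0.93 and -1.03 for Clec4g and 0.64, 0.95 and -0.95 for Pdgfrb. Hnf4a was -0.76 for IVF in Atf7-/-, 0.68 for ATF7 loss in natural mating and -0.74 for the interaction, of which the last pair fell under the fold threshold without that array (0.53 and -0.59). Ms4a1 rose with IVF in Atf7-/- (0.71) and in WT (0.93, and 1.05 without that array). Cd3g rose with IVF in Atf7-/- (0.74). S100a9 rose with IVF in Atf7-/- (0.78) and fell with ATF7 loss in natural mating (-0.71, and -0.46 with adjusted p = 0.0744 without that array). Each call of Ms4a1, Cd3g and S100a9, that of Clec4g for IVF in WT and the interaction of Hnf4a ended without any one of 4 or more arrays. The interaction of Clec4g ended without Atf7-/- IVF replicate 3 (-1.04, adjusted p = 0.0518).

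Of the PA28 genes, Psme2 was called and Psme1 was not. Psme2, a subunit of PA28, read 10.46, 10.68 and 10.68 in Atf7-/- IVF, 9.77, 9.65 and 9.91 in Atf7-/- natural mating, 10.54, 10.61 and 10.65 in WT IVF, and 10.46, 10.68 and 11.08 in WT natural mating. Atf7-/- natural mating lay below the 9 other arrays. It fell by ATF7 loss in natural mating (-0.96, SE 0.15, adjusted p = 0.00161), rose by IVF in Atf7-/- (0.83, SE 0.15, adjusted p = 0.00402) and had an interaction of 0.97 (SE 0.21, adjusted p = 0.0179), and the first and the last were -0.79 and 0.80 without WT natural mating replicate 3. Psme1, its partner in PA28, read 9.80, 9.82 and 9.51 in Atf7-/- IVF, 9.99, 9.68 and 9.98 in Atf7-/- natural mating, 9.80, 9.73 and 9.61 in WT IVF, and 9.64, 9.72 and 10.35 in WT natural mating, and was called in none of the contrasts. For ATF7 loss in natural mating Psme1 gave -0.02 (SE 0.18, adjusted p = 0.957).

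Psme3, the nuclear activator, read 8.75, 9.10 and 8.91 in Atf7-/- IVF, 9.40, 9.16 and 9.35 in Atf7-/- natural mating, 9.29, 9.21 and 9.50 in WT IVF, and 8.70, 8.76 and 8.89 in WT natural mating. Atf7-/- natural mating and WT IVF were above the other groups. Its interaction of -0.93 (SE 0.17, adjusted p = 0.00875, and -0.99 without WT natural mating replicate 3) combined -0.38 for IVF in Atf7-/- (adjusted p = 0.0585) with 0.55 for IVF in WT (adjusted p = 0.0191), neither past both thresholds, though the WT effect was called without WT IVF replicate 2 (0.61) or WT natural mating replicate 3 (0.60). Psme4, an activator of the nuclear proteasome, gave 0.45 for IVF in Atf7-/- (SE 0.10, adjusted p = 0.013) and 0.45 in WT (SE 0.10, adjusted p = 0.0204), under the fold threshold. Psmf1, an inhibitor of the 20S core in vitro, gave -0.54 for IVF in Atf7-/- (SE 0.12, adjusted p = 0.0151) and -0.02 in WT (SE 0.12, adjusted p = 0.955), and its Atf7-/- effect was called without Atf7-/- natural mating replicate 2 (-0.64).

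**Figure D5:**
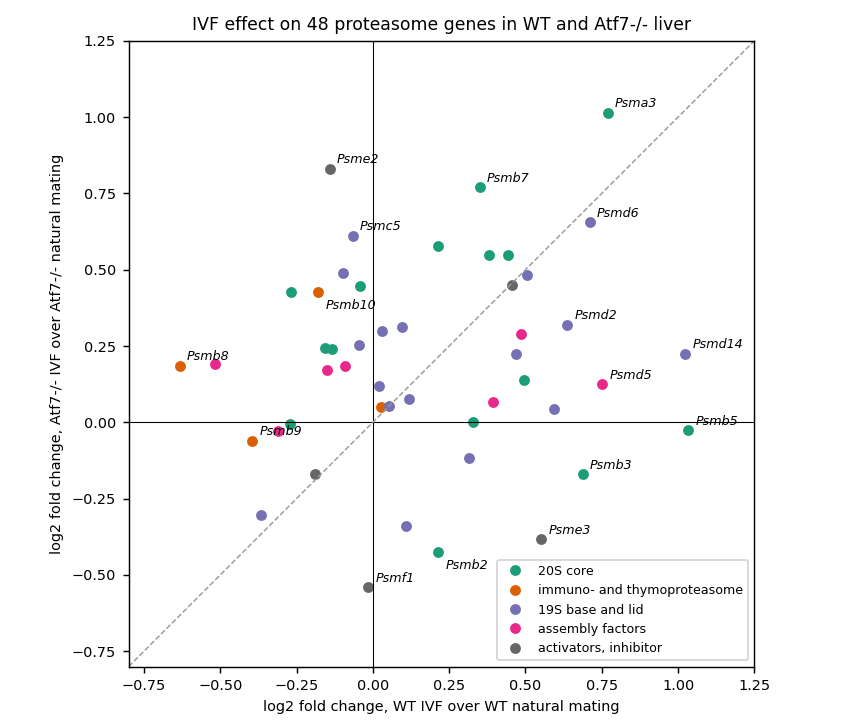
Log2 fold change of each of the 48 proteasome genes for IVF in Atf7-/- (vertical axis) against IVF in WT (horizontal axis), coloured by particle; the dashed line marks equal effects, and genes called in either contrast or in the interaction, Psmb8, Psmb9, Psmb10 and Psmf1 are named. Psma3 and Psmd6 are high on both axes, Psmb5, Psmd14 and Psmb3 only on the WT axis, and Psme2, Psmb7 and Psmc5 mainly on the Atf7-/- axis.

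Setting the IVF effects side by side, 2 genes, Psma3 and Psmd6, were called in both genotypes. Psmb5, Psmb3 and Psmd14 were called in WT, and their interaction terms were -1.06, -0.86 and -0.80. Psme2 and Psmc5 were called in Atf7-/-, with interaction terms of 0.97 and 0.68. For Psmb7, Psmd2 and Psmd5, which were called in 1 genotype, the interaction was 0.42 (adjusted p = 0.0909), -0.32 (adjusted p = 0.366) and -0.63 (adjusted p = 0.186), so that a difference between genotypes was not shown for them.

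Other partners of the proteasome were also examined. The 18 measured include shuttle receptors, deubiquitinases, the segregase Vcp and its cofactors. Of these 18, 4 were called in at least 1 contrast, beside 13.9% of all probe sets. Besides Sem1, these were Nploc4, a Vcp cofactor, and the ubiquilin shuttles Ubqln1 and Ubqln4. Nploc4 read 9.90, 10.05 and 9.97 in Atf7-/- IVF, 10.66, 10.59 and 10.75 in Atf7-/- natural mating, 10.25, 10.18 and 10.24 in WT IVF, and 10.05, 10.02 and 10.02 in WT natural mating. Atf7-/- natural mating was above all others, the reverse of Sem1. Nploc4 rose by ATF7 loss in natural mating (0.64, SE 0.08, adjusted p = 0.00051, and 0.59 without Atf7-/- natural mating replicate 3) and fell by IVF in Atf7-/- (-0.70, SE 0.08, adjusted p = 0.000467), with an interaction of -0.89 (adjusted p = 0.00158). Ubqln4 fell by IVF in Atf7-/- (-0.81, SE 0.11, adjusted p = 0.00115) and had an interaction of -0.66 (adjusted p = 0.0302), which was lost without any one of 7 arrays (Atf7-/- IVF replicate 3, Atf7-/- natural mating replicate 1 or 3, WT IVF replicate 1 or 3 and WT natural mating replicate 1 or 2, with -0.67 to -0.56). Ubqln1 had an interaction of -0.71 (SE 0.13, adjusted p = 0.0104). Nfe2l1, the transcription factor that induces proteasome genes when proteasome activity is low, gave -0.27 for IVF in Atf7-/- (SE 0.16, adjusted p = 0.327), -0.07 for IVF in WT (SE 0.16, adjusted p = 0.842) and 0.09 for ATF7 loss in natural mating (SE 0.16, adjusted p = 0.79).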

How the data were processed

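The authors normalized the scans of 12 arrays by RMA (package affy), and the deposited log2 values of each probe set were used unchanged. For that step, versions, filters and genome build: not given in the sources used here. Platform annotation gave 1 symbol for 21640 of 34760 probe sets, several for 1321 and none for 11799, and 56 probe sets matched the symbol rule. The fit used limma 3.58.1 (R 4.3.3; a mean for each of 4 groups, 12 arrays, 8 residual degrees of freedom, empirical Bayes), after the step was tested on simulated data. The contrasts were IVF in Atf7-/-, IVF in WT, ATF7 loss in natural mating, ATF7 loss in IVF, and their interaction. The test and thresholds follow the study's methods. The members, lists and tests were chosen with earlier results of these data known.

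Values on every array were given for the catalytic genes, Psme1, Psme2 and the 14 called members with the largest changes, and values for the extremes of each subcomplex and for called genes of the partner, interferon and cell type lists. Psmg4, called beyond those 14, and values of Tap1 were added after they were seen. The 3 arrays per group limit the precision. Alternatives were a fit of the compared groups alone, a replicate block, trended robust variances, array weights, median centring, quantile normalization on top of RMA, removal of dim probe sets, the mean of a gene's probe sets, no fold threshold and each array left out. Figures were drawn with matplotlib 3.10.9 in Python 3.11.15.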

Additional observations from a re-analysis of the deposited data

Results flagged for a closer look

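The IVF effect differed between Atf7-/- and WT livers, by a test of the difference itself (the limma interaction term), in 7 proteasome genes. The IVF effect in Atf7-/- minus that in WT was -1.06 for Psmb5, -0.93 for Psme3, -0.86 for Psmb3, -0.80 for Psmd14 and -0.64 for Psmb2, and it was 0.97 for Psme2 and 0.68 for Psmc5. Those of Psmb3, Psme2 and Psme3 stayed past both thresholds without each array in turn.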

How the results depend on the processing

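Of 27 calls, 16 were kept without each array in turn and 19 under every other alternative, and 0 of the 27 changed sign in any of them. The counts of called genes, with 1 array left out, were 4 to 7 higher and 0 to 1 lower for IVF in WT, 0 to 1 lower for IVF in Atf7-/-, 3 to 9 lower for ATF7 loss in natural mating, and 1 to 6 higher and 2 to 5 lower for the interaction. Without the fold threshold they were 12 higher and 3 lower for IVF in Atf7-/-, 15 and 1 for IVF in WT, 6 and 12 for ATF7 loss in natural mating, and 4 higher for the interaction. ATF7 loss in natural mating lowered 3 genes with only the groups compared and 3 with median centring, which left 1 higher for the interaction. Median centring also moved all probe sets, to 1334 higher and 432 lower for IVF in WT, beside 989 and 582, and to 711 and 1628 for the interaction, beside 945 and 1203. With the replicate block, IVF in WT raised 6 genes, ATF7 loss in natural mating lowered 4 and the interaction was lower in 4 (lost: Psmd5, Psmb10 and Psmb2), but the numbers do not pair the mice: deviations of same-numbered arrays correlated at -0.12 to 0.24. Of 100 subcomplex medians set against median centring and the mean of a gene's probe sets, 2 moved. Without WT natural mating replicate 3, uncalled values turned, such as those of Psmb9 (0.06, beside -0.40), Psmb10 (0.02, beside -0.18) and Psme1 (0.03, beside -0.19) for IVF in WT and of the Psmb9 interaction (-0.12, beside 0.34), as did the immunoproteasome median for IVF in WT (0.04, beside -0.29) and that of lid and base for ATF7 loss in natural mating (0.01, beside -0.06). The cause of these changes was not tested. The fit of only the groups compared was not run for the interaction. A small number of arrays, and unknown background, limit what can be called.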
